A study of Mus musculus with 16 samples.

Results

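Livers of mice that lacked Rassf1a and also carried only 1 intact copy of Sav1 were compared with livers of mice that carried the Sav1 change alone. The comparison used the 4 arrays labelled Rassf1a-/- Sav1+/- (called the double genotype here) and the 4 labelled Sav1+/-, chosen by genotype label, which are 8 of the 16 arrays in the study. All mice were of strain 129, and both groups share the Sav1+/- state, so their labels differ in the Rassf1a genotype alone. The other arrays came from wild-type and Rassf1a-/- livers, 4 each. The sources used here do not give sex, age, time of collection, the cells in which the alleles were changed, or whether each sample was a separate animal. The p-values therefore measure the spread between these samples, which may be technical. Total RNA of whole liver was hybridised to Affymetrix whole-transcript arrays, and the values are log2 signals. Of 35556 probe sets, 21789 name exactly 1 gene, and 13152 genes had a probe set above the filter level in at least 4 arrays. That level, the array's 40th percentile over probe sets naming 1 gene, lay between 7.16 and 7.44.

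Rassf1a is the long isoform of Rassf1, a scaffold that is silenced in many tumours. Its protein binds the MST kinases through a SARAH domain, as SAV1 does, and so feeds into the Hippo pathway, in which MST and LATS kinases restrain the coactivators YAP and TAZ in liver. RASSF1A also binds and stabilises microtubules. The study's title names 2 liver readouts of its loss, the kinase Tbk1 and beta tubulin transcripts. Several transcripts below belong to the circadian clock, in which BMAL1 and CLOCK drive genes through E-boxes, the period and cryptochrome proteins and CIART repress them, and the factors DBP, TEF and HLF pass the rhythm on through D-boxes.

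The targeted genes were read first, as a check of the labels. Rassf1 (probe set 10588669) read 6.99, 8.14, 7.28 and 7.67 in Sav1+/- replicates 1 to 4 and 7.71, 7.502, 7.56 and 7.48 in the double genotype, a difference of +0.044 (SE 0.19, 95% interval -0.37 to +0.46). The groups overlapped, and a probe set that may lie outside the deleted part checks nothing about the Rassf1a genotype. Sav1, heterozygous in both groups, read 7.60, 8.17, 7.38 and 7.3998 and 7.63, 7.73, 7.30 and 7.96, again overlapping, with a difference of +0.017 (SE 0.17). Tbk1, the kinase of innate signalling named in the study's title, read 8.002, 9.51, 8.07 and 8.52 against 8.33, 8.32, 7.73 and 8.57, and its difference of -0.29 did not pass the test described next (SE 0.26, limma adjusted p = 0.657). Sav1+/- replicate 2 gave its highest value, and without it the Tbk1 difference was +0.038.

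The largest changes between the livers were in clock genes. Time of collection is not given, so its part in these changes was not tested and cannot be told apart from genotype. Arntl, which encodes BMAL1, was 8.05-fold higher in the double genotype, from a Sav1+/- mean below the filter level, while Usp2, a rhythmic deubiquitinase, was 7.90-fold lower and Ciart fell to a mean of 6.17, below the filter level. Transcripts of 3 beta tubulins, of the bile acid enzyme Cyp8b1 and of choline kinase Chka rose, and the lipogenic gene Thrsp and the interferon-induced Ifi27l2a fell. In all, 110 of 13152 genes (0.836%) passed limma's test at a Benjamini-Hochberg adjusted p under 0.05, a threshold that "called" refers to throughout, with 88 higher (0.669%) and 22 lower (0.167%). In 849 genes (6.46%) the 4 arrays of one genotype all lay beyond the 4 of the other, and 106 of the 110 called genes were among them. The exceptions, named after their values were seen, were Pdk4, Lnx2, Plxna2 and Tnfaip2, all higher. At an unadjusted p under 0.05 there were 1974 genes (15%), with 10.9% of all genes higher and 4.07% lower. Fold changes of called genes ranged on the log2 scale from 0.51 in size, for Usp21, to 3.64, for Ciart, whose size is uncertain at that low signal. The median difference of all genes was +0.08, and 62.8% of them were positive. The shares of all genes called higher, called lower and positive are the base for the list counts below. In whole liver, fewer cells of a type and less RNA per cell cannot be told apart.

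**Figure D1:**
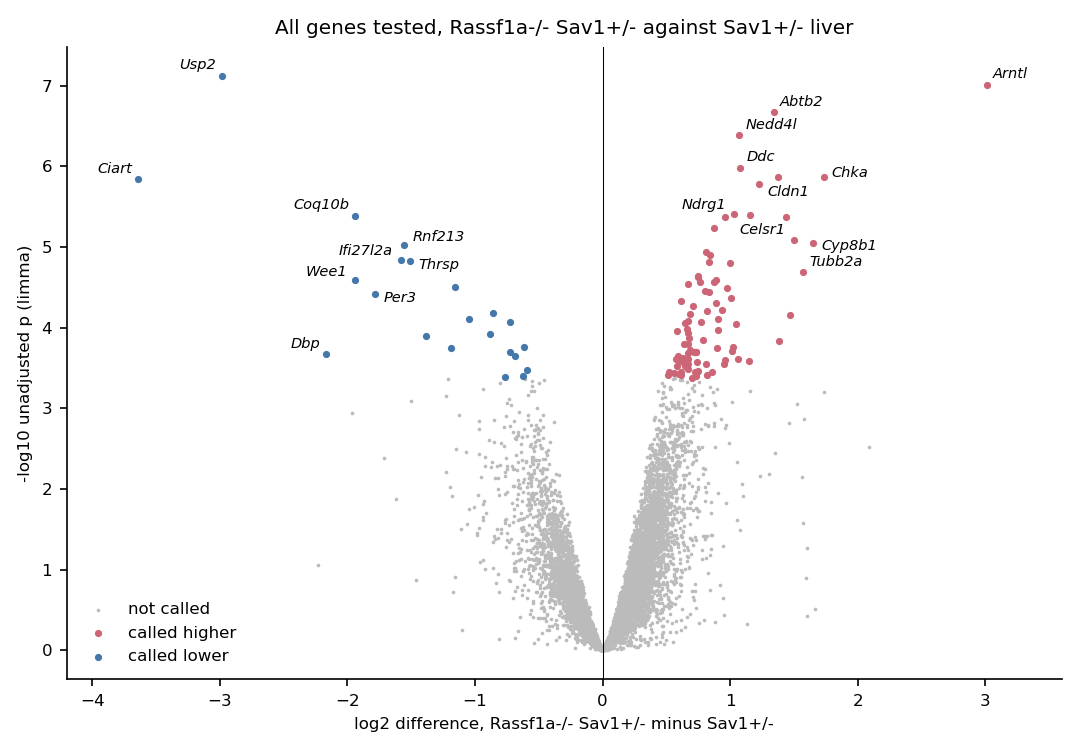
Each point is 1 of the 13152 genes, placed by its log2 difference (horizontal) and the -log10 of limma's unadjusted p (vertical). Called genes are coloured: 88 higher in the double genotype on the right and 22 lower on the left, with Arntl, Ciart and Usp2 farthest from 0.

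The arrays were not alike within a genotype. Y-linked genes (3 of 4 measured) stood at 8.87 or more in 5 of the 16 arrays and at 4.17 or less in the rest, and each genotype compared here held 2 of each kind (Sav1+/- replicates 3 and 4, double genotype replicates 1 and 2). Since this class is balanced, entering it as a block left each difference as it was and raised the calls to 179 (1.36%; 1.02% higher and 0.342% lower), which include all 110. Within the 2 high-Y arrays of each genotype 9 genes were called (0.0684%), and within the low-Y arrays 4 (0.0304%): Cyp8b1, Pigl, Rfx4 and Tfcp2, all higher. Xist read 10.34 or more in the low-Y and 4.31 or less in the high-Y arrays. The first principal component (35.0% of the variance) followed this class, with scores of 33.7 to 39.9 in high-Y and -20.6 to -10.9 in low-Y arrays. The second principal component (20.9% of the variance) spread the arrays within both genotypes. Sav1+/- replicates 1 and 2 scored 47.5 and -27.3 on it, and double genotype replicates 3 and 4 scored 12.01 and -27.7. Without Sav1+/- replicate 2 the calls rose to 479 (3.64%), all 110 included. They fell to 27 without double genotype replicate 2, to 42 without replicate 3 and to 70 without replicate 1. Without Sav1+/- replicate 1 there were 62 and without replicate 3 there were 59. Leaving out replicate 1 or 4 of Rassf1a-/-, which enters only the shared estimate of spread, gave 66 and 67. With only the 8 arrays in the fit, Arntl alone passed (limma adjusted p = 0.0203; 1116 genes at an unadjusted p under 0.05).

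Promoter stretches of 4 clock-linked genes called lower are shown because they hold letters that clock factors are known to bind. The promoters of Dbp, Usp2 and Upp2, which are clock-linked and were called lower too, held neither motif in the window searched, so the letters are not general to these genes. They were read from RefSeq sequence of build GRCm38.p6, within 250 bases before a gene's start, with 20 bases kept on each side. Capitals mark the E-box CACGTG or the D-box TTATGTAA, each searched on both strands, and the motifs do not overlap each other. In Coq10b the D-box lies on the opposite strand.
Ciart (chr3:95882247-95882364, minus strand): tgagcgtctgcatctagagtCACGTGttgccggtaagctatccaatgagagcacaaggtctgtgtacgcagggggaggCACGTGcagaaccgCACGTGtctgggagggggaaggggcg
Coq10b (chr1:55052588-55052717, plus strand): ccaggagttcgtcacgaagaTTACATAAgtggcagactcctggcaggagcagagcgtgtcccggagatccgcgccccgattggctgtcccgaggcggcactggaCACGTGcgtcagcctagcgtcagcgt
Tef (chr15:81802526-81802571, plus strand): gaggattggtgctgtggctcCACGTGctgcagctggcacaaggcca
Tef (chr15:81811256-81811301, plus strand): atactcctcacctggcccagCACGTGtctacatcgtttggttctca
Per3 (chr4:151044796-151044890, minus strand): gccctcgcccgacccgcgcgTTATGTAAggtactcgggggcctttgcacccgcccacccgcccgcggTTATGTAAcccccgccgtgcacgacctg
Ciart held 3 E-boxes, at 116, 58 and 44 bases before the start, on chromosome 3. Coq10b held a D-box at 162 and an E-box at 78 bases, Tef 1 E-box in each of 2 promoters, and Per3 a pair of D-boxes at 205 and 158 bases. For scale, the E-box occurred in 6.02% of all 32851 promoters of the table and the D-box in 0.819%. Shares of genes count a gene if any of its promoters held the motif. Among genes tested that have a promoter there, the E-box stood in 9.59% of 10421, in 11.3% of the 71 called higher and in 25.0% of the 16 called lower, which is 4 genes. Ciart, Coq10b and Tef are among these 4, and Per3 is not. The D-box stood in 0.768% of the 10421, in 0 of the 71 and in 12.5% of the 16, which is 2 genes, Coq10b and Per3. Another motif searched, the RORE core AGGTCA, stood in 13.95% of the 10421, in 16.9% of the 71 and in 18.75% of the 16, which is 3 genes. A match is a description of these letters and shows no binding.

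Of the clock's activators, both that were measured were positive, and 1, Arntl, was called. Arntl averaged 6.71 in Sav1+/- and 6.71 in wild-type livers, below the filter level. It thus entered the test mainly through arrays where it is high, and its direction adds no support to that count. Arntl (probe set 10556463) read 5.77, 7.41, 6.96 and 6.70 in Sav1+/- replicates 1 to 4 and 9.41, 10.15, 9.97 and 9.34 in the double genotype. Every double genotype array stood far above every Sav1+/- array, whose mean (6.71 ± 0.69, SD, n = 4) was below the filter level. The rise was +3.01 (SE 0.34, limma adjusted p = 0.000637), and it was +2.95 within the high-Y and +3.07 within the low-Y arrays. Clock, the partner of BMAL1, read 9.36, 10.37, 10.49 and 10.55 against 11.03, 11.20, 10.72 and 11.03. These arrays did not overlap either, but the difference of +0.80 missed the threshold (SE 0.21, limma adjusted p = 0.0920, and 0.0465 with the class block, where it passed in 1 of the 16 fits that each left out an array).

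Among 8 measured repressors of the loop, 7 were negative, 2 were called lower, and the list's median was -0.97 against +0.08 for all genes. Ciart (probe set 10373452), whose protein blocks BMAL1 activity, read 9.96, 9.34, 9.61 and 10.32 in Sav1+/- livers and 6.66, 5.08, 4.84 and 8.08 in the double genotype. The groups were far apart, and the double genotype was spread widely, with replicates 2 and 3 lowest and replicate 4 highest. With a double genotype mean below the filter level, Ciart fell by 3.64 on the log2 scale (SE 0.50, limma adjusted p = 0.00239), and a second probe set of the gene (10500272) gave -2.76. Ciart thus entered the test mainly through arrays where it is high, and its direction adds no support to the count of 7. Per3, a period protein, read 9.64, 9.43, 9.10 and 9.64 against 7.82, 7.19, 6.83 and 8.84 and fell by 1.78 (SE 0.32, limma adjusted p = 0.0134). Its call was lost without double genotype replicate 2 (adjusted p = 0.0722). Per2 read 9.26, 9.23, 9.43 and 9.78 against 8.37, 8.01, 7.59 and 8.88 and Per1 9.22, 10.14, 9.80 and 10.22 against 8.92, 7.07, 8.19 and 9.20. The arrays of Per2 did not overlap, nor did those of Nr1d2, and for Per1 the highest double genotype array (9.199) lay just under the lowest Sav1+/- array (9.218). By limma, Per2 (-1.21, adjusted p = 0.05001) and Per1 (-1.4999, adjusted p = 0.0692) missed the threshold, and they passed with the class block (0.0302 and 0.0453). Nr1d2, which encodes the repressor REV-ERB beta, differed by -0.74 and Bhlhe40 (DEC1) by -0.71, neither called. The overlapping rest were Cry2 (-0.21) and Nr1d1 (+0.15), the REV-ERB alpha gene, whose sign turned without Sav1+/- replicate 1.

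**Figure D2:**
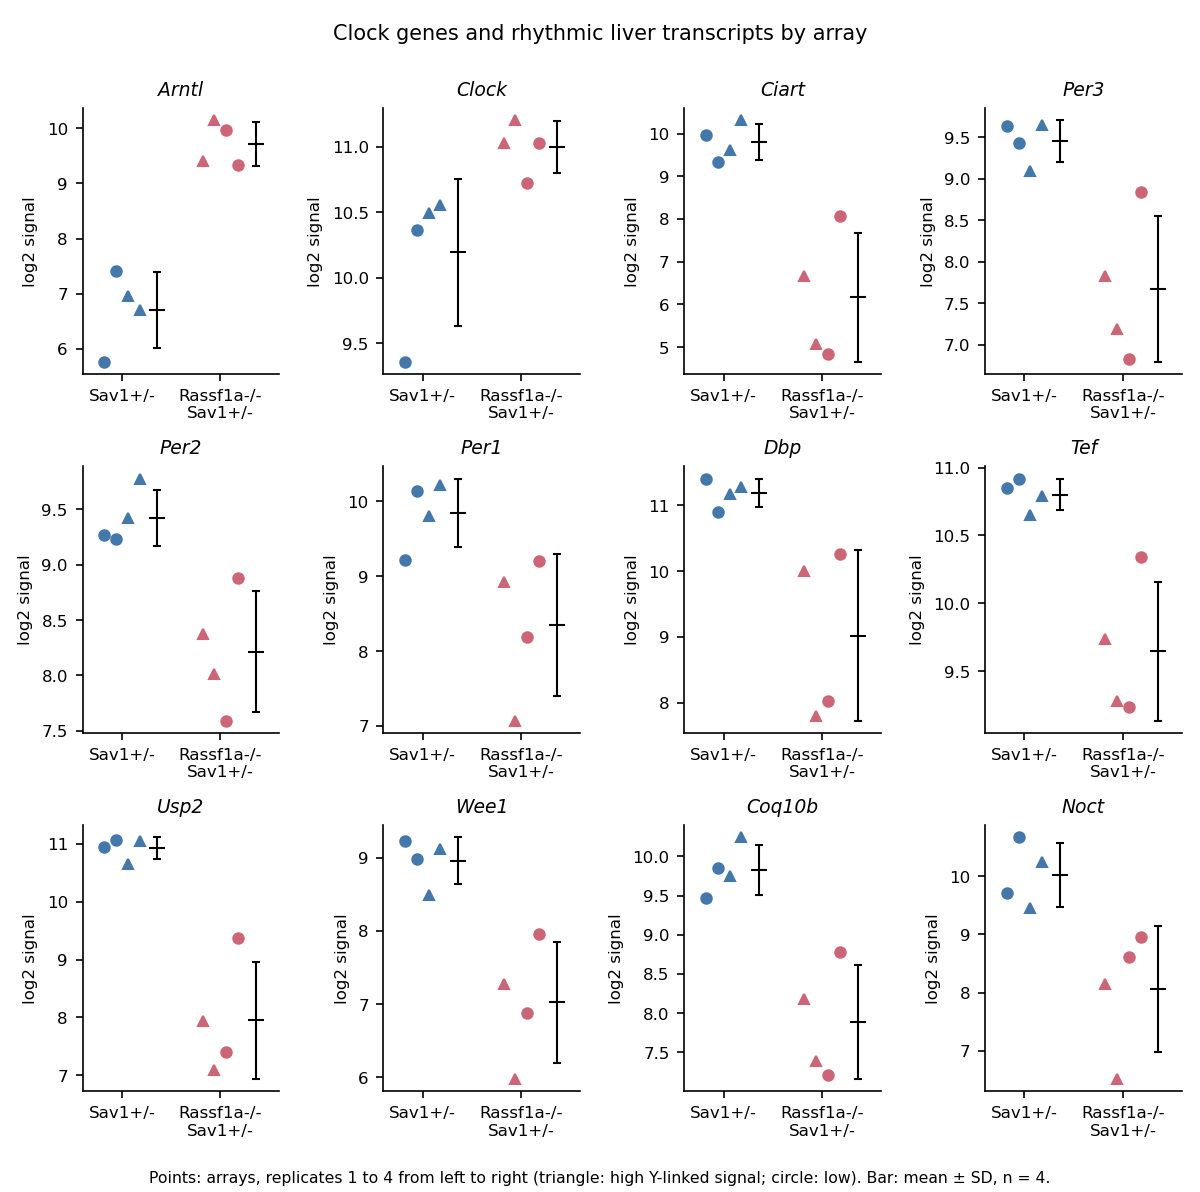
Log2 signal of 12 clock and rhythmic liver genes in each array, Sav1+/- in blue and the double genotype in red, with triangles for high-Y arrays and bars for the mean ± SD (n = 4). Arntl and Clock lie higher in all 4 double genotype arrays, while the other 10 genes lie lower, with double genotype replicate 4 nearest to the Sav1+/- arrays in each of them.

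Of 5 measured output factors, 2 were called lower, both of the PAR bZIP family. Dbp read 11.40, 10.90, 11.17 and 11.28 in Sav1+/- livers and 10.001, 7.80, 8.03 and 10.26 in the double genotype. All 4 double genotype arrays were below, replicates 2 and 3 by far the most. Dbp fell by 2.17 (SE 0.46, limma adjusted p = 0.0362) but lost its call in 8 of the 16 leave-one-out fits (each without 1 array), up to an adjusted p of 0.133 without double genotype replicate 2. In all such counts, 8 of the 16 fits leave out a wild-type or Rassf1a-/- array, which alters only the shared spread and not the difference. Tef read 10.85, 10.92, 10.65 and 10.79 against 9.74, 9.28, 9.24 and 10.34, without overlap, and fell by 1.15 (SE 0.20, limma adjusted p = 0.0123, but 0.0635 without double genotype replicate 2 and 0.0550 without replicate 3). Hlf, the third member of that family, differed by -0.32 with overlap. Nfil3, which opposes them at D-boxes, was +0.74 and Rora +0.21, and neither passed.

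Among 15 rhythmic liver transcripts, 4 were called lower and 1 higher (0.167% and 0.669% of all genes), with a median of -0.42. Usp2 (probe set 10584634) read 10.95, 11.06, 10.65 and 11.05 in Sav1+/- and 7.93, 7.08, 7.39 and 9.38 in double genotype livers. The Sav1+/- values were tight and the others lay well below. Usp2 fell by 2.98 (SE 0.33, limma adjusted p = 0.000637), a call kept in all 16 leave-one-out fits. Wee1, the kinase that holds cells before mitosis, read 9.23, 8.99, 8.50 and 9.13 against 7.27, 5.97, 6.88 and 7.96 and fell by 1.94 (SE 0.34, limma adjusted p = 0.0116). Coq10b, a coenzyme Q binding protein, read 9.46, 9.85, 9.74 and 10.24 against 8.18, 7.39, 7.21 and 8.79 and fell by 1.94 (SE 0.29, limma adjusted p = 0.00394). Neither gene's groups overlapped. The Wee1 mean of the double genotype was below the filter level, so the direction of Wee1 adds no support to the count of 4. The uridine phosphorylase Upp2 read 12.60, 12.54, 12.05 and 12.20 against 10.95, 10.51, 11.69 and 11.49 and fell by 1.19 (limma adjusted p = 0.0349), a call lost in 4 of the 16 fits, up to 0.124 without double genotype replicate 2. The called gene that rose was Avpr1a, a vasopressin receptor (+0.78, limma adjusted p = 0.0310), lost in 6 of the fits (up to 0.115, without the same array). Noct, the Nocturnin gene, read 9.72, 10.67, 9.45 and 10.24 against 8.14, 6.51, 8.61 and 8.96. Its arrays did not overlap, and its difference of -1.96 did not pass (limma adjusted p = 0.0782, and 0.0147 with the class block). Among the 16 leave-one-out fits without the block it passed in 1, the one without Rassf1a-/- replicate 2 (0.0467).

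All 5 beta tubulins that passed the filter, of 7 with a probe set, were higher in the double genotype. None of them overlapped between genotypes, against 5.03% of all genes that were apart in that direction. Of these 5, 3 were called, and the median was +0.74. Tubb2a (probe set 10408610) read 8.89, 8.94, 9.002 and 9.15 in Sav1+/- replicates 1 to 4 and 10.08, 10.91, 10.92 and 10.34 in the double genotype. Sav1+/- values lay within a narrow band and double genotype replicates 2 and 3 were highest. Tubb2a rose by 1.57 (SE 0.27, 2.97-fold, limma adjusted p = 0.0108, but 0.0578 without double genotype replicate 2). Tubb2b read 6.66, 7.15, 7.25 and 7.17 against 8.22, 8.89, 8.63 and 8.36, with Sav1+/- replicate 1 lowest. Every Sav1+/- array, and their mean, lay below the filter level. Tubb2b thus entered the test through other arrays, and its direction adds no support to the count of 5. Its rise of 1.47 (SE 0.28, limma adjusted p = 0.0199) was lost without Sav1+/- replicate 1 (0.0611), double genotype replicate 2 (0.0877) or replicate 3 (0.0667). These neighbouring genes are near-identical in their coding sequence, so their signals may be shared. Tubb1, the platelet form, read 8.09, 8.22, 8.43 and 8.16 against 8.93, 8.88, 9.08 and 8.99 and rose by 0.74 (SE 0.17, limma adjusted p = 0.0466), a call lost in 11 of the 16 leave-one-out fits (up to 0.127, without double genotype replicate 3). Tubb5 (10.61, 11.02, 10.84 and 10.91 against 11.54, 11.41, 11.26 and 11.17) and Tubb6 (8.44, 8.34, 8.27 and 8.73 against 9.05, 8.90, 8.95 and 9.16) were higher in every array without passing. Their differences were +0.50 (limma adjusted p = 0.0954) and +0.57 (0.137).

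Other tubulins moved less, with 0 of 8 called, 7 positive and a median of +0.15. Of 16 genes for tubulin folding and autoregulation none was called either, and their median of +0.11 was near that of all genes. A pair of microtubule-linked genes, named after their values were seen, were among the called. Map1s, a microtubule protein known as a RASSF1A partner, read 6.82, 6.92, 6.58 and 6.76 against 7.26, 7.55, 7.47 and 7.48, apart but low in signal, a rise of 0.67 (SE 0.13, limma adjusted p = 0.0266, lost in 5 of 16 fits, up to 0.102 without double genotype replicate 2). Ttll12, of the tubulin tyrosine ligase-like family, read 7.34, 7.92, 7.67 and 8.23 against 8.74, 8.78, 8.49 and 8.91 and rose by 0.94 (SE 0.18, limma adjusted p = 0.0187, 0.0597 without Sav1+/- replicate 3 and 0.0737 without double genotype replicate 2).

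Several metabolic genes were called. Cyp8b1 (probe set 10597875), the sterol 12-alpha-hydroxylase that sets the share of cholic acid in bile, read 9.70, 9.09, 10.27 and 10.39 in Sav1+/- and 11.12, 11.94, 11.59 and 11.40 in double genotype livers. The groups were apart, and the low-Y Sav1+/- livers (replicates 1 and 2) read lowest. It rose by 1.65 (SE 0.26, 3.14-fold, limma adjusted p = 0.00696), with +1.20 within the high-Y and +2.10 within the low-Y arrays. It was the sole call among 19 genes of bile acid synthesis and transport, of which 13 were positive (62.8% of all genes were) with a median of +0.22. Hsd3b7, of the same pathway, differed by +0.45 and the bile salt exporter Abcb11 by +0.45, and the sterol exporter gene Abcg5 by -0.47, none called.

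Chka, which starts phosphatidylcholine synthesis by phosphorylating choline, read 7.48, 8.59, 8.14 and 8.47 in Sav1+/- and 9.54, 10.47, 10.03 and 9.56 in double genotype livers. No array overlapped. Chka rose by 1.73 (SE 0.24, 3.32-fold, limma adjusted p = 0.00239) and was the one call among 13 genes of choline and phospholipid synthesis. The mitochondrial protease subunit gene Clpx read 9.17, 10.15, 9.57 and 9.60 against 10.66, 11.04, 10.74 and 10.69, a rise of 1.16 (SE 0.17, limma adjusted p = 0.00394). Coq8a, an atypical kinase needed for coenzyme Q synthesis, read 11.37, 11.37, 11.35 and 11.29 against 12.06, 12.22, 12.40 and 12.01 and rose by 0.83 (SE 0.14, limma adjusted p = 0.00867). Neither gene overlapped between genotypes, and the Sav1+/- values of Coq8a were nearly equal. With Coq10b these were 3 calls among 19 genes of mitochondrial proteases and coenzyme Q, 2 higher and 1 lower.

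In fat metabolism, Thrsp, a regulator of fatty acid synthesis in liver, read 12.63, 12.09, 11.52 and 12.16 against 10.70, 10.35, 10.58 and 10.75. The double genotype values were close together and all below the lowest Sav1+/- value. Thrsp fell by 1.51 (SE 0.25, limma adjusted p = 0.00867). Among 22 genes of fat synthesis it was the one call, while 17 were positive (62.8% of all genes were), so the list's median (+0.22) had the other sign. Lpin1, a phosphatidate phosphatase, was -1.13 without passing (limma adjusted p = 0.0819), and Elovl5, a fatty acid elongase, was +0.47. Of 25 targets of PPAR alpha and enzymes that oxidise fatty acids, 1 rose and 1 fell. Pdk4, a kinase that shuts pyruvate dehydrogenase, read 8.37, 8.78, 7.61 and 7.94 against 8.66, 9.96, 9.95 and 9.66, and the lowest double genotype array lay below Sav1+/- replicate 2. Its rise was 1.38 (SE 0.28, limma adjusted p = 0.0312), lost in 6 of the 16 leave-one-out fits (up to 0.122, without double genotype replicate 2). All 6 were among the 8 fits that left out an array of the compared genotypes. Angptl4, an inhibitor of lipoprotein lipase, read 10.46, 10.98, 10.89 and 11.40 against 10.20, 9.83, 9.53 and 9.99, apart, and fell by 1.05 (SE 0.20, limma adjusted p = 0.0215), lost in 4 of 16 fits (up to 0.0797, again without that array).

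Cholesterol synthesis genes (20 measured) were positive in 19 cases with a median of +0.27, and none was called. That median was +0.67 within the high-Y arrays and -0.12 within the low-Y arrays. Among 22 amino acid and metal transporters 2 were called, both of metals. Slc30a10, a manganese exporter, read 8.96, 9.74, 9.76 and 9.71 against 10.36, 11.01, 10.59 and 10.39 and rose by 1.05 (SE 0.21, limma adjusted p = 0.0225), with Sav1+/- replicate 1 below its group (adjusted p = 0.0544 without it, 0.0959 without double genotype replicate 2 and 0.0667 without replicate 3). Slc39a4, a zinc importer, read 10.39, 10.13, 10.35 and 10.70 against 11.23, 11.21, 11.14 and 11.22, apart, with the double genotype within a narrow range. It rose by 0.81 (SE 0.14, limma adjusted p = 0.0132, 0.0578 without double genotype replicate 2). The glycine cleavage system, picked as a group after its values were seen, had 2 of 4 members called: Gldc rose by 0.82 (11.05, 11.27, 11.25 and 11.15 against 11.77, 12.24, 12.06 and 11.93) and Amt by 0.63 (9.90, 10.04, 9.85 and 10.06 against 10.34, 10.59, 10.71 and 10.73). Both were apart (limma adjusted p = 0.0189 and 0.0401), and the calls were lost in 3 and 12 of 16 fits, up to 0.0846 and 0.122 without double genotype replicate 2.

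Among cell junction and polarity genes, Cldn1 (probe set 10438769), which encodes a tight junction claudin, read 10.45, 11.06, 11.12 and 11.09 in Sav1+/- and 12.04, 12.44, 12.18 and 11.97 in double genotype livers. Sav1+/- replicate 1 lay below its group and all double genotype arrays above it. Cldn1 rose by 1.23 (SE 0.17, limma adjusted p = 0.00240), a call kept in all 16 leave-one-out fits. Cldn3, another claudin, read 10.48, 10.46, 10.63 and 10.78 against 11.22, 11.29, 11.31 and 11.28, and the junction scaffold gene Tjp3 (ZO-3) 8.16, 8.99, 8.50 and 8.26 against 9.24, 9.76, 9.28 and 9.44. Both rose, by 0.69 (limma adjusted p = 0.0197) and 0.95 (0.0409), and they lost their calls in 3 and 12 of the 16 fits (up to 0.0741 and 0.152, without double genotype replicate 2). These 3 were the calls among 21 claudins and scaffolds, a group chosen after its values were seen. Of the 21, 16 were positive (62.8% of all genes were) with a median of +0.21. Celsr1, an adhesion cadherin of planar cell polarity, read 8.29, 8.55, 7.97 and 7.41 against 9.17, 10.07, 9.44 and 9.53 and rose by 1.497 (SE 0.24, limma adjusted p = 0.00680). No Celsr1 array overlapped.

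The other large rises without overlap had no shared list. Abtb2 (probe set 10474181), a BTB domain protein, read 8.55, 8.58, 7.89 and 8.43 against 9.71, 9.68, 9.54 and 9.88, and its rise of 1.34 (SE 0.16, limma adjusted p = 0.000936) passed in all 16 leave-one-out fits. Nedd4l, a ubiquitin ligase that limits sodium channels, read 9.17, 9.83, 9.69 and 9.67 against 10.62, 10.70, 10.60 and 10.73 and rose by 1.07 (limma adjusted p = 0.00134). Ddc, the aromatic amino acid decarboxylase, read 9.20, 9.37, 9.25 and 9.55 against 10.26, 10.76, 10.42 and 10.26, a rise of 1.08 (limma adjusted p = 0.00239). In each of these genes the double genotype arrays lay together above all Sav1+/- arrays. Rfx4, a transcription factor, rose by 1.44, its double genotype arrays spanning only 9.02 to 9.12. Denn2b, of the DENN domain family, rose by 1.37 and the sugar carrier family gene Slc45a3 by 1.06, the latter lost in 13 of the 16 fits (up to 0.137, without double genotype replicate 2). Ndrg1, a stress-responsive gene named after its values were seen, read 9.51, 9.64, 9.23 and 9.14 against 10.40, 10.44, 10.56 and 10.26 and rose by 1.03 (limma adjusted p = 0.00394). Of 11 hepatocyte transcription factors, also chosen afterwards, Foxa2 (+0.82, limma adjusted p = 0.0482) and Gata4 (+0.67, 0.0219) were called. Their calls were lost in 13 and 3 fits, up to 0.145 and 0.0950 without double genotype replicate 2.

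**Figure D3:**
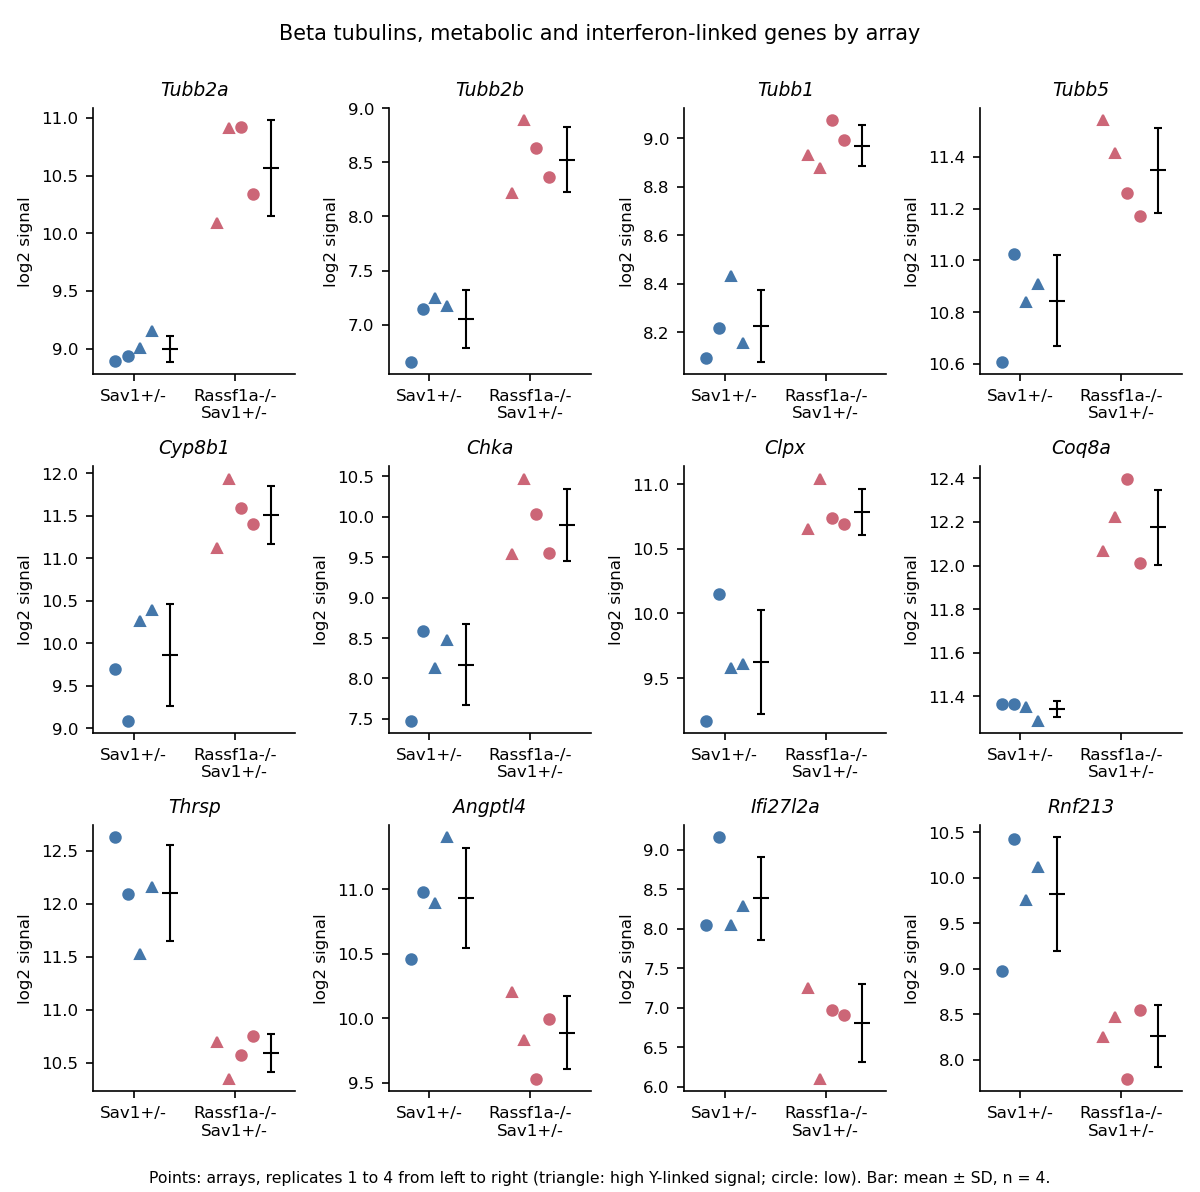
Log2 signal of 4 beta tubulins, 6 metabolic genes and 2 interferon-linked genes in each array, Sav1+/- in blue and the double genotype in red, with triangles for high-Y arrays and bars for the mean ± SD (n = 4). The genotypes do not overlap in any of the 12 panels; Thrsp, Angptl4, Ifi27l2a and Rnf213 lie lower in the double genotype and the other 8 higher.

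Most interferon-stimulated genes measured were negative, and 1 was called. Ifi27l2a (probe set 10402347), an interferon-induced gene, read 8.04, 9.16, 8.04 and 8.29 in Sav1+/- and 7.25, 6.10, 6.97 and 6.91 in double genotype livers. Sav1+/- replicate 2 was highest, and the double genotype mean was below the filter level, as was every double genotype array. Ifi27l2a thus entered the test through other arrays, and its direction adds no support to the list counts that follow. Ifi27l2a fell by 1.58 (SE 0.26, limma adjusted p = 0.00867) and was the single call among 19 interferon-stimulated genes. Of those, 15 were negative, 2 of them without overlap (1.42% of all genes were apart downward), and their median was -0.41. Without Sav1+/- replicate 2, the array with the highest Usp18, Rtp4 and Xaf1 values, that median was -0.15. Usp18, which removes the ubiquitin-like ISG15, read 7.92, 9.53, 8.96 and 9.10 against 7.66, 8.30, 7.13 and 8.14, overlapping, and its difference of -1.07 did not pass (limma adjusted p = 0.115). Rnf213, a large ubiquitin ligase outside that list, read 8.97, 10.43, 9.75 and 10.12 against 8.25, 8.47, 7.79 and 8.55 and fell by 1.55 (SE 0.25, limma adjusted p = 0.00697), with -1.54 from its other probe set. Sav1+/- replicate 1 was lowest of its group and still above every double genotype array.

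The remaining named falls were of single genes without overlap. Ntrk2, the receptor of the neurotrophin BDNF, read 8.92, 9.43, 8.11 and 9.75 against 7.23, 8.06, 7.71 and 7.67 and fell by 1.38 (SE 0.28, limma adjusted p = 0.0283), lost in 6 of 16 fits (up to 0.0724, without double genotype replicate 1). Pim3, a serine kinase, fell by 0.86 (limma adjusted p = 0.0197), and Ndufb2, a subunit of respiratory complex I, by 0.88 (0.0275). These calls were lost in 3 and 5 of 16 fits, up to 0.0809 and 0.102 without double genotype replicate 2. Ndufb2 was the one call among 35 complex I subunits, of which 25 were negative with a median of -0.13. Cytosolic ribosomal protein genes were negative in 45 of 52 cases with a median of -0.24, and none was called. Small nucleolar RNAs, 50 of them measured, were negative in every case with a median of -0.67 and no call (7 called lower, median -1.002, without Sav1+/- replicate 2). Their mean per array ran from 9.67 to 11.11 in Sav1+/- and from 9.34 to 10.10 in double genotype livers. With that mean as a covariate, an alternative added after the data were seen, 47 genes were called, 40 of them among the 110. These 3 groups were chosen after their values were seen, and their part in the other differences was not tested further.

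**Figure D4:**
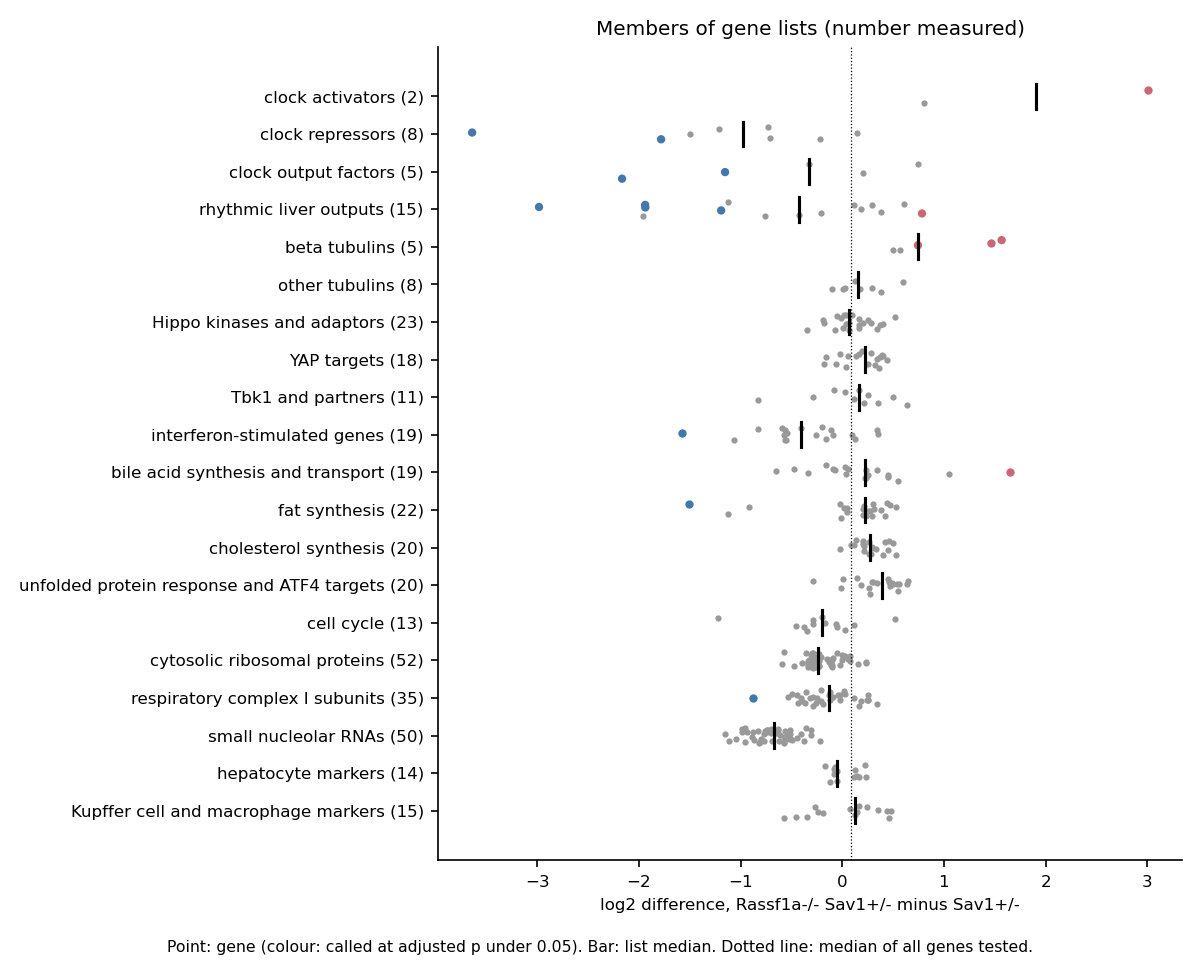
Log2 differences of the measured members of 20 gene lists (number measured in brackets), with called genes coloured, a black bar at each list's median and a dotted line at the median of all genes (+0.08). Beta tubulins lie to the right of 0 and clock repressors mostly to the left; the 50 small nucleolar RNAs lie to the left without a call.

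Hippo pathway genes gave no call. Of 23 Hippo kinases and adaptors 17 were positive, and their median of +0.07 was near that of all genes. Those with the smallest p did not pass. Stk4, the MST1 kinase, differed by +0.37 (unadjusted 95% interval +0.075 to +0.67, limma adjusted p = 0.221). The transcription factor gene Tead3 differed by +0.51 (0.152) and its cofactor Vgll4 by +0.40 (0.136). Tead3 and Vgll4 were apart, 2 of the 23, where 5.03% of all genes were apart upward. Of 18 YAP target genes 14 were positive with a median of +0.22, and 0 passed by limma. At an unadjusted p under 0.05, 3 of the 18 were higher, where 10.9% of all genes were. Jag1 (+0.34), Dlc1 (+0.39), Igfbp3 (+0.40) and Tgfb2 (+0.28) had the smallest p among them. Of 11 measured genes for Tbk1 and its partners none passed, and the related kinase gene Ikbke was +0.63 (limma adjusted p = 0.172). Cell cycle genes (13 measured) had 10 negative members and no call. Top2a, a topoisomerase of dividing cells, was -1.23 with a limma adjusted p of 0.144. Its other probe set, with means of 5.70 and 5.20 under the filter level, gave -0.50. Mcm7, of the same list, was +0.51. Genes of the unfolded protein response and ATF4 targets were positive in 18 of 20 cases with a median of +0.39 and no call. Sdf2l1 (+0.63) and Atf5 (+0.55) were among them. Without Sav1+/- replicate 2, 1 YAP target and 2 genes of the unfolded protein response list were called higher. Failing the threshold does not show that these genes were alike in the 2 genotypes.

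Markers of cell types were examined on the same scale. Hepatocyte markers were near the top of the signal range in both genotypes: Alb averaged 13.93 and 13.76. Their mean over 14 genes ran from 13.18 to 13.46 in Sav1+/- and from 13.34 to 13.49 in double genotype arrays, and none was called. Kupffer cell and macrophage markers (15 measured, 0 called) averaged, over the 17 with a probe set, from 9.28 to 10.58 and from 9.62 to 10.30, with a median difference of +0.46 within the high-Y and -0.37 within the low-Y arrays. Endothelial (15 measured) and stellate cell (13) markers had medians of +0.13 and +0.14 with no call, and 9 and 10 were positive, 6 and 3 negative. At an unadjusted p under 0.05, 2 and 4 of them were higher, where 10.9% of all genes were. Lyve1, a hyaluronan receptor of sinusoidal endothelium, averaged 7.38 ± 0.53 and 8.84 ± 0.39 (SD, n = 4 each), apart, a difference of +1.46 (SE 0.39, limma adjusted p = 0.0909). Acta2, smooth muscle actin, averaged 7.33 ± 1.19 and 8.89 ± 0.83 with overlap, a difference of +1.56 (SE 0.51, limma adjusted p = 0.154). Lyve1 and Acta2 had the largest rises of their lists. Other markers fell, among them the endothelial Clec4g (means 11.26 and 11.05) and the stellate cell Lum (8.27 and 7.81). The part of these cell types in the other differences was not tested. Of 7 cholangiocyte markers with a probe set only 2 passed the filter, and Krt19, which defines these cells, averaged 5.87 and 6.63, under the filter level in both groups. Lymphocyte (6), neutrophil (3) and erythroid (3) markers were each called in 0 cases.

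With the sex-chromosome class as a block, 69 further genes were called. Among the largest rises were Slc13a2, a citrate and dicarboxylate carrier (+1.74, limma adjusted p with the block = 0.0288), and Gask1a (+1.53, 0.000397). Gask1a read 8.09, 7.77, 6.17 and 6.46 against 8.08, 8.16, 9.22 and 9.13. Its genotypes overlapped, but within each class both double genotype arrays lay above both Sav1+/- arrays. Hspb1, a small heat shock protein (+1.16), Gramd4 (+1.01), Eps8l2 (+0.99), Spon2 (+0.96), the cytidine deaminase Cda (+0.93) and the ephrin receptor Epha2 (+0.90) also rose. Among those that fell was Sult1e1, the oestrogen sulfotransferase, which read 11.28, 10.80, 6.95 and 8.002 against 4.81, 4.53, 8.53 and 10.25. Its level followed the class within both genotypes, with -2.81 within the high-Y and -1.65 within the low-Y arrays (limma adjusted p with the block = 0.00529, 0.421 without). Clock, Noct, Per1 and Per2 passed here as well, and in leave-one-out fits with the block they passed in 1, 13, 4 and 10 of 16. Unc79 (-1.62), the Cajal body RNA Scarna13 (-1.22), the growth factor Nrg4 (-1.20) and the transcription factor Cebpd (-0.94) fell as well. Some of these genes were low in signal, which limits the size of a fold. Unc79 averaged under the filter level in both groups, Cebpd and Sult1e1 in the double genotype, and Slc13a2, Gask1a and Spon2 in Sav1+/- livers. With the block, Epha2 passed in 3, Cebpd and Scarna13 in 5 each and Unc79 in 7 of the 16 leave-one-out fits. Without Sav1+/- replicate 2 this fit called 1107 genes and without double genotype replicate 2 or replicate 3 it called 49, without Sav1+/- replicate 3 it called 64, and without replicate 4 it called 108.

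Rassf1a-/- against wild-type livers gives the same Rassf1a difference with Sav1 intact, in 8 arrays that share none with the comparison above, though both use 1 estimate of spread. The sex-chromosome class was not balanced there, since Rassf1a-/- held 1 high-Y array (replicate 2) and wild type none. In that comparison 92 genes were called (0.7%), 57 higher and 35 lower, and 144 with the class block, 89 of them shared. Leaving out wild-type replicate 1, 3 or 4 gave 56, 54 and 58, and leaving out Rassf1a-/- replicate 1 or 2 gave 54 and 61. Of the 110 genes called with Sav1 heterozygous, 95 had the same sign with Sav1 intact (86.4%, against 56.2% of all genes), and 34 were called in both, which is 30.9% of the 110 and 37.0% of the 92. Arntl was +3.37 with Sav1 intact and +3.01 with Sav1 heterozygous, Ciart -4.16 and -3.64, Usp2 -3.90 and -2.98, and Dbp -3.17 and -2.17. Tubb2a was +1.99 and +1.57, and Chka +1.78 and +1.73. Over the 110 genes the median ratio of the difference with Sav1 intact to that with Sav1 heterozygous was 0.569. The genes were picked for passing on the heterozygous background, so that ratio and the shared signs are descriptions.

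**Figure D5:**
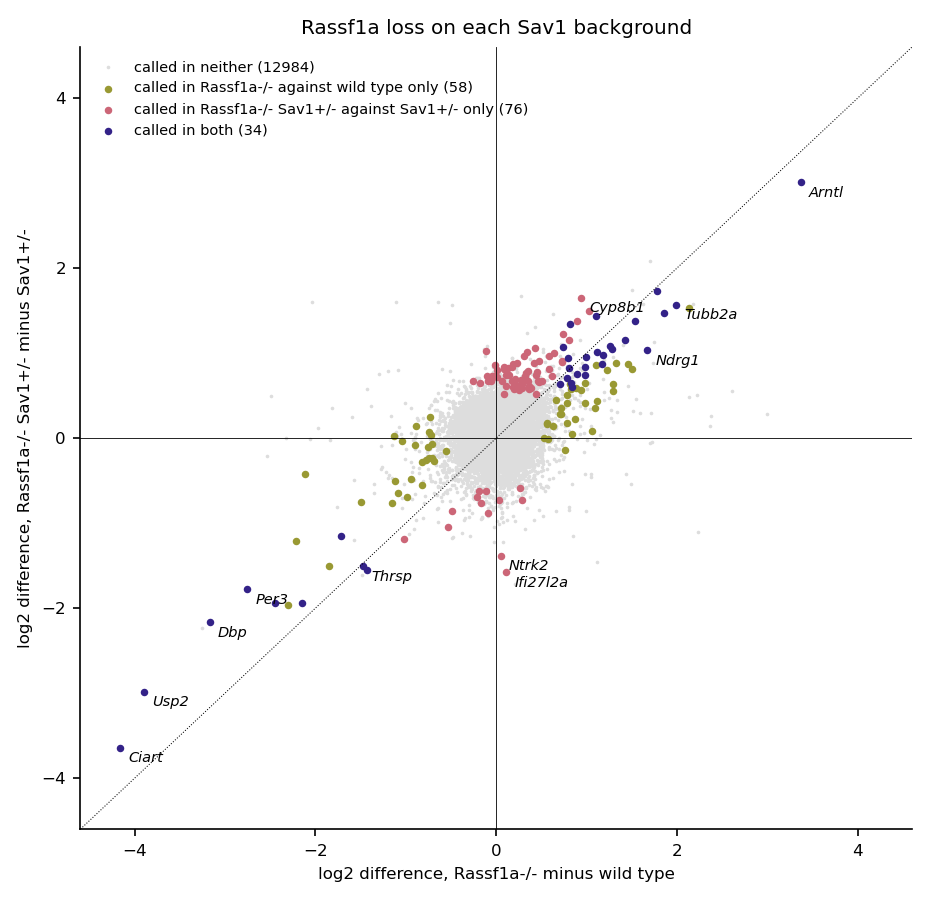
Each gene's log2 difference for Rassf1a loss with Sav1 intact (horizontal) and with Sav1 heterozygous (vertical), coloured by where it was called; the dotted line marks equal differences. The 34 genes called in both, among them Arntl, Ciart, Usp2, Dbp and Tubb2a, have the same sign on both backgrounds, while Ifi27l2a and Ntrk2 are low on the vertical axis and near 0 on the horizontal axis.

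The difference between the 2 Rassf1a effects was tested as an interaction, and limma called 0 of 13152 genes, with 1236 at an unadjusted p under 0.05 (9.4%) and a smallest adjusted p of 0.316. Clock and tubulin genes were thus not shown to differ between backgrounds: the interaction of Arntl was -0.36 (SE 0.48), of Ciart +0.52 (SE 0.71) and of Tubb2a -0.42 (SE 0.38). That of Per2 was larger for its spread, at +1.005 (SE 0.39, limma unadjusted p = 0.0205, adjusted p = 0.454). Per2 differed by -2.22 with Sav1 intact and by -1.21 with Sav1 heterozygous. The 5 genes with the smallest p did not pass: Alpl (+1.15), Lsm1 (-1.004), Slc9a8 (+1.11), Sntg2 (-0.90) and Rhbdd2 (+0.97). Alpl, the tissue-nonspecific alkaline phosphatase, differed by -1.13 with Sav1 intact and by +0.020 with Sav1 heterozygous, and it was the gene called without double genotype replicate 3 (limma adjusted p = 0.0338). Ifi27l2a differed by +0.11 and -1.58 (interaction -1.69, SE 0.37, limma adjusted p = 0.316). Ntrk2 differed by +0.049 and -1.38 (-1.43, adjusted p = 0.343), and Slc39a4 by +0.009 and +0.81 (+0.80, adjusted p = 0.343). With the class block 1 gene passed (0.0076%), the model 9030619P08Rik (-1.48, limma adjusted p = 0.0386), named after its values were seen.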

How the data were processed

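The deposited values are log2 signals per probe set, 1 column per array; per the submitters' processing notes Affymetrix Expression Console was used. The sources used here give neither its version nor how signals were summarised and normalized. Array medians ran from 7.20 to 7.51. Probe sets were named from the platform annotation given with the data, updated through RefSeq (21698 of 21789 matched; 1621 naming several genes and 12146 naming none were left out). Each gene was represented by its probe set with the highest mean. Genes that exceeded the 40th percentile of an array in 4 or more of the 16 were fitted with limma 3.58.1 in R 4.3.3 with 4 genotype means (12 residual degrees of freedom) and Benjamini-Hochberg adjustment. Named genes were the largest called changes without overlap (up to 15 a direction), up to 8 a direction called only with the class block, the 5 smallest interaction p, the clock and beta tubulin genes, and up to 4 of each described list by p; exceptions are marked. The members, lists and rules were chosen with earlier results of these data known. The script was tested on simulated data. Array number limits the precision.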

Additional observations from a re-analysis of the deposited data

Results flagged for a closer look

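Among the genes named above, 230 groups of 4 arrays were checked for 1 array far from the other 3, and 11 were found (4.78%), while chance gives about 1 in 20 groups. Sav1+/- replicate 1 was the array in 4 of them. It read 6.66 for Tubb2b (others 7.15 to 7.25), 10.45 for Cldn1 (11.06 to 11.12), 8.96 for Slc30a10 (9.71 to 9.76) and 9.36 for Clock (10.37 to 10.55). Sav1+/- replicate 2 was high for Gramd4, at 8.27 (6.88 to 7.07), and for Cry2, at 10.17 (9.64 to 9.69). Sav1+/- replicate 3 was low for Igfbp3, at 9.79 (10.34 to 10.45). In the double genotype, replicate 2 was high for Slc9a8, at 10.90 (10.50 to 10.53), and for Selenoi, at 11.67 (11.25 to 11.32). Replicate 4 was high for Lsm1, at 7.39 (7.17 to 7.19), and replicate 3 low for Slc39a4, at 11.14 (11.21 to 11.23).

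Probe sets outside the gene comparison also differed between the genotypes. By the same limma fit, 4 of 1044 probe sets naming several genes were called, all lower, and 24 of 4268 probe sets naming no gene, 9 higher and 15 lower.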

How the results depend on the processing

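The 45 named genes called for the double genotype kept their direction in every setting run for them (31 each, but 30 for Ifi27l2a, Lsm1 and Map1s, which the 60th percentile filter left out). Fits without a wild-type or Rassf1a-/- array, or with another spread alone, leave the difference as it was. Where the genotypes do not overlap, leaving out arrays cannot turn the sign, so this count is no support. Of the 70 named genes not called, 27 passed in at least 1 setting. Against 110 calls there were 53 with no filter, 185 with a 60th percentile filter, 1 with only the 8 arrays (8 with the class block as well), 50 with median centring, 173 with a trended and robust prior, 55 with array weights, 173 with the Y-linked mean as covariate, 9 in the high-Y and 4 in the low-Y arrays, and 47 with the small nucleolar RNA mean as covariate. Leaving out 1 array gave 27 to 479. Against 179 calls with the class block there were 87 with no filter, 325 with the 60th percentile filter, 303 after quantile normalization, 340 with the trended prior, 76 with the small nucleolar RNA mean, and 49 to 1107 without 1 array. The interaction had 1 call with the block and 0 to 1 without 1 array. Rassf1a-/- against wild type had 144 with the block and 54 to 128 without 1 array. Counts with probe sets averaged (117) or tested singly (110) were close to the reported one; the cause of the other shifts was not tested.

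Signs turned for genes near 0. Alpl was -0.013 after quantile normalization, -0.093 in the low-Y arrays, -0.027 with the small nucleolar RNA mean, and -0.065 to 0.20 without 1 array. Rassf1 was -0.046 in the low-Y arrays, -0.14 with that mean, and -0.13 to 0.25 without 1 array. Sav1 was -0.25 in the low-Y arrays, -0.19 with that mean, and -0.084 to 0.20 without 1 array. Tbk1 was 0.027 in the high-Y arrays and -0.46 to 0.038 without 1 array, Nr1d1 was -0.0067 to 0.27 without 1 array, and Rora was -0.068 with the small nucleolar RNA mean. The settings with that mean, and with 8 arrays and block, were chosen after seeing the data. No paired analysis was run because the labels pair no arrays. The labels carry no replicate numbers either, and those used here follow the order of the samples in the series. Among the called genes, 8 averaged under the filter level in Sav1+/- and 4 in the double genotype, where low signal limits the size of a fold.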
